A study of Homo sapiens with 38 samples.

Results

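The SNU-398 Sorafenib screen compared 2 guide libraries from cells grown for 14 days with Sorafenib with 2 libraries from cells grown for the same time with vehicle. These 4 libraries were chosen by their labels, out of 38 samples in the series. SNU-398 is an established human hepatocellular carcinoma (HCC) line. The cells stably expressed Cas9, delivered by a lentivirus, were transduced with the TKOv3 library of knockout guides, and were selected with puromycin. Every group, vehicle included, carried both the nuclease and a guide. Sorafenib was given at the concentration that inhibits 20% of the cells. The vehicle libraries carry the label T1, and they were taken as vehicle because the methods name a vehicle group and no other label remains for it. For comparison, 2 SNU-398 libraries were taken before treatment (T0), 2 came from SNU-398 cells under Regorafenib, and 4 came from Hep3B, another HCC line, under Sorafenib or vehicle for 14 days. The edgeR fit below also took in SNU-398 libraries under Abemaciclib, Palbociclib, Lenvatinib and Erastin, to estimate the spread between libraries. These drugs too were given for 14 days at the concentration that inhibits 20% of the cells. No source states whether both libraries of a group came from independent cultures. The edgeR p-values therefore reflect spread between libraries that may be purely technical. The p-values of NormZ, a score explained below, rest on the spread over guides and genes. They do not measure the spread between libraries.

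In a pooled knockout screen each cell loses 1 gene, and the guide it carries is the label by which it is counted. A guide that becomes rarer under the drug than under vehicle marks a gene whose loss lowered the number of surviving cells, and such genes are called resisters. A guide that becomes more common marks a sensitizer, a gene whose loss left more cells under the drug. Sorafenib is a diaryl urea that inhibits RAF kinases and the receptors of VEGF and PDGF. It is also known to lower cystine uptake in some cells and to uncouple mitochondria, and it is used as an inducer of ferroptosis, an iron-dependent death caused by peroxides of membrane lipids. The enzyme GPX4 removes these peroxides and carries selenocysteine, an amino acid that is built on its own tRNA by PSTK and then SEPSECS. The respiratory chain pumps protons across the inner mitochondrial membrane, starting at complex I, and ATP synthase uses the gradient to make ATP.

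The SNU-398 table held 66582 guides, of which 66447 targeted 18036 genes and 135 were control guides against LacZ, luciferase or EGFP. The vehicle libraries held 21983238 and 11558112 counts and the Sorafenib libraries 21220450 and 21071624. A guide had no count in 25.3% and 29.3% of cases with vehicle and in 40.9% of cases in each Sorafenib library, against 10.7% and 12.6% at T0. A mean T0 count of 50 or more was reached by 45.3% of the guides, and 2115 genes had no guide at that depth. The 2 vehicle libraries correlated at 0.988 over guides, the 2 Sorafenib libraries at 0.995, and a Sorafenib with a vehicle library at 0.942 to 0.944. Guide levels are given as CPM, the count scaled to a library total of 1e+06, and a count of 0 in a Sorafenib library leaves a level of up to 0.142 CPM (3 counts). These limits cover counting error only, since amplified reads are not independent molecules.

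NormZ sums the log2 ratios of the guides of a gene, each divided by the spread of guides at that depth, and is negative for a resister. At a one-sided p under 0.01, 325 of 18036 genes were resisters (1.8%) and 152 were sensitizers (0.843%), beside the 1% on each side that this threshold gives for normally distributed scores. The resisters reached further from 0. NormZ ran from -7.26 to 4.12, and 27 resisters but 0 sensitizers passed a false discovery rate of 0.05, the lowest rate of a sensitizer being 0.21. In each pair of libraries taken alone, 178 of the resisters and 67 of the sensitizers passed again. The values just inside the threshold were -2.33 and 2.33. Keeping only guides with a mean T0 count of 50 or more left 296 resisters, 188 of them among the 325, but 40 sensitizers, 23 of them among the 152.

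**Figure D1:**
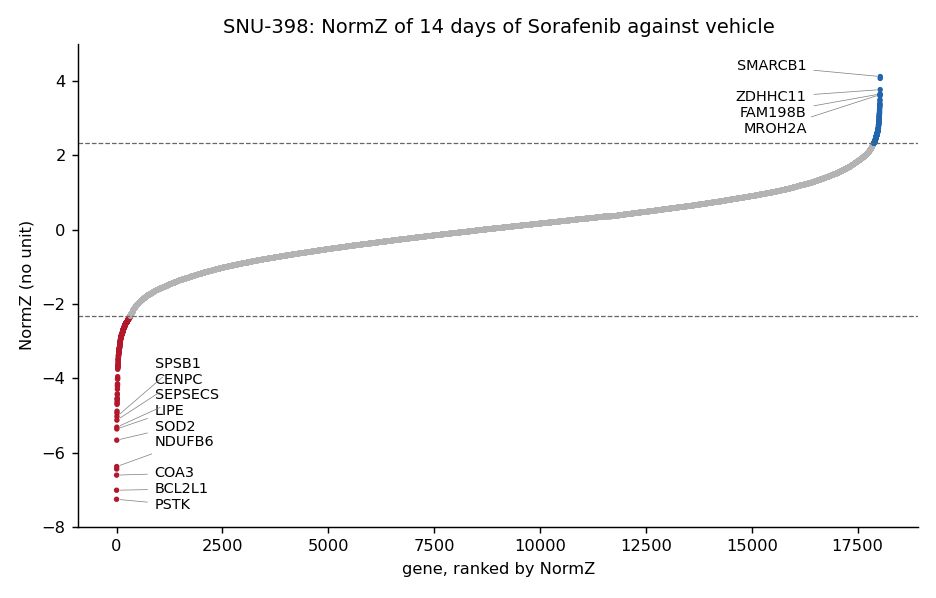
NormZ of 18036 genes (vertical axis, no unit) in order of rank, with resisters in red, sensitizers in blue and the p threshold of 0.01 as dashed lines. The 10 lowest genes, led by PSTK at -7.26, lie further from 0 than the highest gene, SMARCB1, at 4.12.

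edgeR, fitted over 15 SNU-398 libraries that include those of other drugs, was used for the size of a change. On counts summed per gene it called 30.6% of 17996 genes lower and 26% higher than vehicle at an adjusted p under 0.05. On single guides it called 31% of 56711 lower and 19.3% higher. Of 116 control guides, which cut no human gene, it called 28 lower and 28 higher, or 48.3%. An edgeR call alone is therefore common in this screen, and fold changes are given below for their size. Fitted on the 4 libraries of this screen only, edgeR called 12359 guides lower and 10304 higher, against 17578 and 10947 over 15 libraries.

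PSTK, the kinase that phosphorylates the serine on the selenocysteine tRNA, had the lowest NormZ of all genes at -7.26 (false discovery rate 3.51e-09). The guides of a gene are numbered by position along the chromosome. Guide 1 of PSTK, at chromosome 10, 124740055 to 124740074, stood at 403 and 401 CPM at T0, 399.9 and 373 CPM with vehicle and 104 and 95.7 CPM with Sorafenib. It held its level for 14 days without the drug and lost most of it with the drug. Guide 2 stood at 5.64 and 7.27 CPM with vehicle and 2.92 and 2.85 CPM with Sorafenib, and guide 3 at 3.91 and 4.499 and 1.79 and 1.52 CPM. Both Sorafenib libraries lay below both vehicle libraries for each of these 3 guides, and guide 4, at 0.273 and 0.346 CPM with vehicle, was too rare to read. Summed over guides, PSTK changed by -1.91 ± 0.041 (log2 fold change ± SE, edgeR adjusted p 5.39e-43), with 97.4% of its vehicle counts in guide 1. The build of the guide positions is not given in the sources used here, and 10.3% of 61544 guide starts lay inside the GRCh38 span of their gene, so these positions are not those of GRCh38.

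SEPSECS, the synthase that turns the phosphoserine made by PSTK into selenocysteine, ranked 8th with a NormZ of -5.32. Its guide 2 fell from 17.2 and 15.6 CPM with vehicle to 2.26 and 2.56 CPM with Sorafenib. Guide 3 fell from 31.02 and 36.2 to 10.4 and 12.5 CPM, and guide 1 from 15.6 and 20.4 to 12.9 and 13.3 CPM. All 3 were lower in both Sorafenib libraries, with log2 fold changes of -2.75 ± 0.19, -1.52 ± 0.12 and -0.403 ± 0.13 (± SE, edgeR). Guide 4, at 0.182 and 0.346 CPM with vehicle, was too rare to read.

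PSTK and SEPSECS were 2 resisters among the 10 genes of selenocysteine synthesis and insertion (20%, beside 1.8% of all genes). The median NormZ of these 10 genes was 0.063. The other 8 lay between -0.66 and 1.02. SEPHS2, which makes the selenium donor, stood at 0.071. EEFSEC, the elongation factor that brings the tRNA to the ribosome, stood at 0.18, and SECISBP2, which binds the signal in selenoprotein mRNAs, at 0.702. The depth of their guides was low for EEFSEC (5.64 and 4.33 CPM summed in the vehicle libraries) and SECISBP2 (20.7 and 21.1 CPM) and higher for SEPHS2 (35.9 and 33.4 CPM). None of the 24 selenoproteins measured was a resister or a sensitizer, with a median of 0.075 and a range from -1.52 to 1.69. With 1.8% resisters and 0.843% sensitizers over all genes, 0 calls among 24 genes is near that share. GPX4, the selenoprotein that removes lipid peroxides, had a NormZ of 0.63. Its guides summed to 13.5 and 13.8 CPM with vehicle and 14.4 and 15.99 CPM with Sorafenib, where both Sorafenib libraries lay slightly above both vehicle libraries, by 0.18 ± 0.14 (log2 fold change ± SE, edgeR adjusted p 0.275). GPX4 was read mostly through guide 3, at 9.098 and 10.9 CPM with vehicle, and its guide 1 had no count in any of the 4 libraries.

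SOD2, the manganese enzyme that removes superoxide in the mitochondrial matrix, ranked 6th with a NormZ of -5.67 (false discovery rate 2.18e-05). Guide 2 fell from 8.097 and 7.96 CPM with vehicle to 0.0942 and 0.1898 CPM with Sorafenib and was nearly lost. Guide 4 fell from 58.8 and 52.3 to 21.1 and 22.3 CPM and guide 3 from 31.3 and 27.7 to 19.4 and 20.98 CPM. The 3 guides fell by unequal amounts, with log2 fold changes of -5.74 ± 0.43, -1.34 ± 0.0905 and -0.53 ± 0.12 (± SE), and guide 1 was not readable. NormZ of SOD2 was -6.31 and -4.63 in the first and second pair of libraries. It was the only resister among 18 genes of superoxide and peroxide removal, which had 0 sensitizers and a median of 0.37. That is 5.56% of the list, beside 1.8% of all genes.

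BCL2L1, which encodes the anti-apoptotic protein BCL-XL, ranked 2nd with a NormZ of -7.02. Guide 2, at chromosome 20, 30309725 to 30309744, stood at 39.96 and 38.7 CPM at T0, 41.1 and 39.02 CPM with vehicle and 3.204 and 4.65 CPM with Sorafenib. Guide 4 fell from 8.55 and 6.92 to 2.07 and 1.71 CPM. Guides 1 and 3 were rare with vehicle, at 0.637 and 0 and at 1.001 and 0.692 CPM, and had no count in either Sorafenib library. All 4 guides were called lower, and the gene changed by -3.06 ± 0.12 (log2 fold change ± SE, edgeR adjusted p 1.72e-29). BCL2L1 was the only resister among 29 genes of apoptosis (3.45%, beside 1.8% of all genes), with 0 sensitizers and a median of 0.35. MCL1, the anti-apoptotic relative, had a NormZ of -0.901, and the executioners BAX and BAK1 had 0.82 and 0.84.

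**Figure D2:**
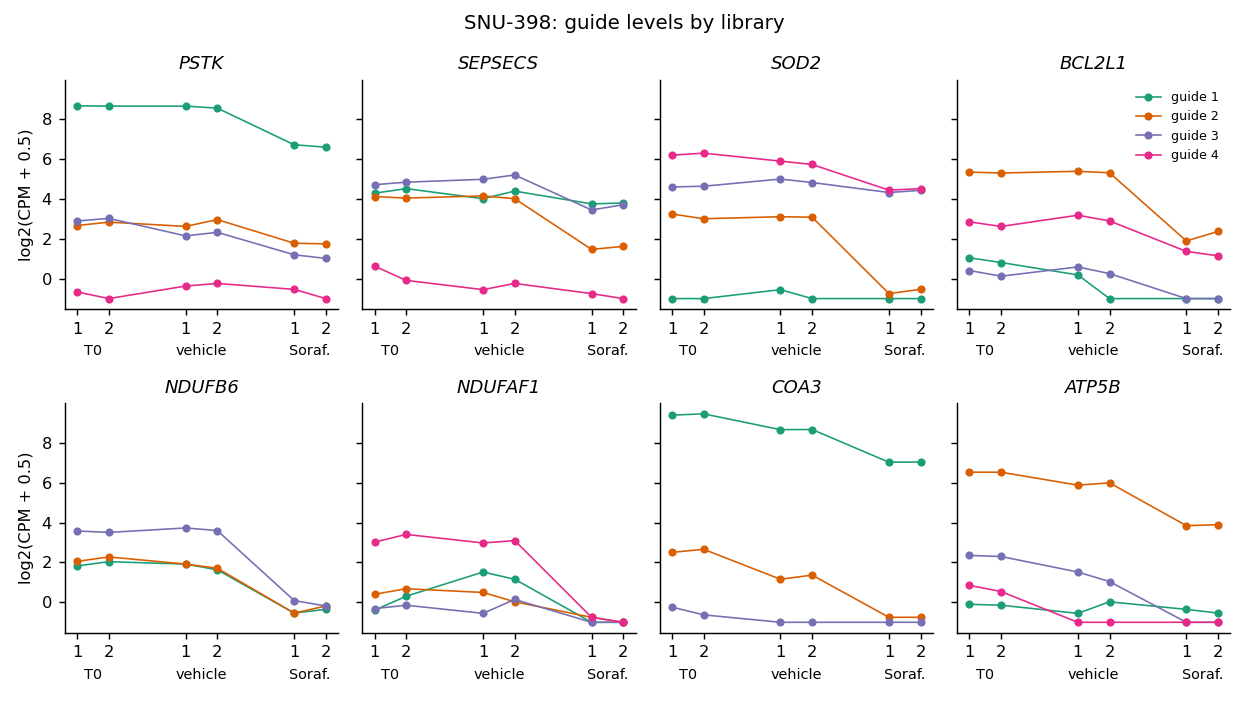
Level of each guide, as log2 of CPM with 0.5 added (vertical axis), in the 2 T0, 2 vehicle and 2 Sorafenib libraries, for 8 resisters, with 1 line per guide. The guides that are readable at T0 drop from vehicle to Sorafenib, as for NDUFB6, where all 3 lie at 0.565 CPM or below with Sorafenib, while lines along the bottom are guides without counts.

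Complex I of the respiratory chain gave more resisters than any other list. Of its 49 subunits and assembly factors measured, 10 were resisters and 0 were sensitizers, beside 1.8% of all genes. Its median NormZ was -0.30, against 0.044 over all genes, and 39 members did not pass. With guides of a mean T0 count of 50 or more only, 9 of the 10 passed again. In edgeR 25 of 48 members were lower and 6 higher, beside 30.6% and 26% of all genes, and 72 of 146 guides (49.3%) were lower and 22 (15.1%) higher, beside 31% and 19.3% of all guides. Among guides with a mean T0 count of 50 or more, 31.4% of 86 complex I guides lay at or below a log2 ratio of -1, against 13.0% of 30125 targeting guides, 11.2% of 509 olfactory receptor guides and 3.57% of 56 control guides. With no count in both Sorafenib libraries stood 9.30% of these complex I guides and 2.57% of all targeting guides. The olfactory receptor guides, at 2.36%, were near the latter, and 0% of the control guides had no count. In both vehicle libraries the shares were 0 for complex I, 0.206% for all targeting guides, 0 for olfactory receptors and 0 for controls.

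**Figure D3:**
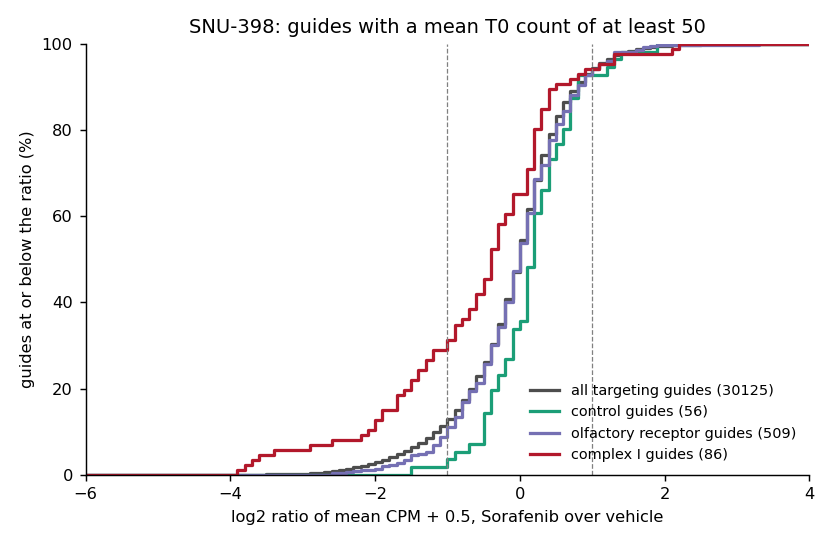
Share of guides (vertical axis, percent) at or below each log2 ratio of mean CPM with 0.5 added, Sorafenib over vehicle, among guides with a mean T0 count of at least 50. The complex I curve lies to the left, with 31.4% of guides at or below -1, and the control curve to the right, with 3.57%.

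NDUFB6, an accessory subunit of the membrane arm, stood at -6.38. Its guides 1, 2 and 3 fell from 3.28 and 2.596, 3.28 and 2.77 and 12.7 and 11.6 CPM with vehicle to 0.188 and 0.285, 0.188 and 0.3797 and 0.565 and 0.3797 CPM. NDUFB6 was thus lost through each of its guides, with a log2 fold change of -4.17 ± 0.21 over the gene (± SE, edgeR adjusted p 4.57e-24).

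NDUFAF1, an assembly factor of complex I, had a NormZ of -4.67. All 4 of its guides were called lower, and the most abundant, guide 4, fell from 7.37 and 8.05 CPM to 0.0942 and 0 CPM. NDUFAF3, also an assembly factor, stood at -3.42, with guide 3 at 29.02 and 30.3 CPM with vehicle and 8.77 and 8.07 CPM with Sorafenib. NDUFV1, the core subunit that takes electrons from NADH, stood at -3.500, and its guides were not alike: guide 4 fell from 11.2 and 8.82 to 1.696 and 2.37 CPM and guide 3 from 20.6 and 19.2 to 16.3 and 13.8 CPM. The accessory subunits NDUFA13 (-3.55), NDUFB10 (-3.32), NDUFA2 (-3.101) and NDUFV3 (-3.09) had lower totals in both Sorafenib libraries than in both vehicle libraries. NDUFA13 summed to 11.3 and 9.52 CPM with vehicle and 0.848 and 1.04 CPM with Sorafenib. NDUFA2 and NDUFV3 rested on few counts, at 6.73 and 7.44 and at 10.6 and 8.65 CPM with vehicle.

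NDUFA5, a further resister of complex I at -2.69, went against its own total. Its guides 3 and 4 fell from 7.096 and 4.85 and 3.09 and 4.67 CPM to 0 and 0 and 0.0942 and 0 CPM, while guide 1 rose from 113 and 116 to 139 and 139 CPM and guide 2 from 5.64 and 4.15 to 10.3 and 7.64 CPM. At the other end of the list, NDUFS3 and NDUFB7, both subunits, had NormZ values of 2.001 and 2.08 that did not pass.

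Complexes II to IV gave 4 resisters (8%, beside 1.8% of all genes) and 0 sensitizers of 50, with a median of 0.059. COA3, an assembly factor of cytochrome c oxidase, ranked 3rd at -6.61. Its guide 1 stood at 666 and 697 CPM at T0, 402 and 404 CPM with vehicle and 129 and 130.4 CPM with Sorafenib, and guide 2 fell from 1.73 and 2.08 to 0.0942 and 0.0949 CPM. COA3 was already lower with vehicle than at T0 and fell further with the drug, with 99.5% of its vehicle counts in guide 1. SURF1, PET117 and COA6, which also take part in assembling cytochrome c oxidase, stood at -3.35, -2.78 and -2.74. SURF1 rested on guides that were rare at T0: guides 1 and 2 had 1.22 and 1.398 and 0.0869 and 0.221 CPM at T0, 3.64 and 4.85 and 3.91 and 3.46 CPM with vehicle, and no count with Sorafenib. PET117 was read through guide 2 alone, at 551 and 564 CPM with vehicle and 261 and 289 CPM with Sorafenib.

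ATP synthase gave 3 resisters (15.8%, beside 1.8% of all genes) and 0 sensitizers of 19, with a median of -0.23. ATP5B, the catalytic beta subunit, stood at -4.62, with guide 2 at 58.1 and 62.9 CPM with vehicle and 13.9 and 14.3 CPM with Sorafenib. Guide 2 held 96.2% of the vehicle counts of ATP5B, and 2 of its 4 tested guides were called lower. ATP5H, a subunit of the stalk that holds the enzyme still, stood at -4.56, and all 4 of its guides were called lower. Its guide 3 fell from 6.46 and 6.75 to 0.0942 and 0.0949 CPM. ATP5A1, the alpha subunit, stood at -2.397, with totals of 49.7 and 52.8 CPM and 28.6 and 32.3 CPM, again with all 4 guides lower. The mitochondrial ribosome, which makes the subunits encoded in mitochondria, gave 2 resisters of 75 (MRPS10 -2.49, MRPL20 -2.46) and 0 sensitizers, with a median of -0.45. These 2 are 2.67% of the list, near the 1.8% of all genes. With guides of a mean T0 count of 50 or more only, ATP5A1 (-2.03), MRPS10 (-1.61) and MRPL20 (-2.03) no longer passed. MRPL54, of the mitochondrial ribosome, then passed at -2.34.

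Beside selenium, the lists named for ferroptosis gave at most 1 resister and 1 sensitizer each. Over all genes 1.8% were resisters and 0.843% sensitizers, so these counts are near that share. Cystine import and glutathione synthesis had 0 resisters and 0 sensitizers of 18, with GSR, the reductase of oxidized glutathione, lowest at -2.04. Its median NormZ of -0.88 was nevertheless the lowest of the 31 lists, and it was -0.27 with guides of a mean T0 count of 50 or more only. In edgeR 10 of these 18 genes were lower and 4 higher, beside 30.6% and 26% of all genes, and 30 of 57 guides (52.6%) were lower and 8 (14.0%) higher, beside 31% and 19.3% of all guides. SLC7A11, the cystine importer, stood at 0.83 and rested on guide 2, with 6.55 and 11.1 CPM with vehicle and 15.3 and 12.1 CPM with Sorafenib, while its 2 other guides had at most 0.091 CPM. Of 30 other suppressors of ferroptosis 1 was a resister, FANCD2, a DNA repair protein, at -3.27. Of 36 drivers, POR, the reductase that feeds cytochromes P450, was a resister at -3.04, and NCOA4, the receptor that delivers ferritin for degradation, was a sensitizer at 2.36. The 4 guides of POR were all called lower, guide 4 standing at 10.3 and 6.75 CPM with vehicle and 2.54 and 1.52 CPM with Sorafenib. ACSL4, which loads polyunsaturated fatty acids into membrane lipids and is needed for ferroptosis in many cells, had a NormZ of 1.72, short of the threshold, with totals of 17.6 and 16.1 CPM with vehicle and 29.7 and 27.4 CPM with Sorafenib. Both Sorafenib libraries were above both vehicle libraries for ACSL4, by 0.77 ± 0.12 (log2 fold change ± SE, edgeR adjusted p 2.93e-07). Without guides under a mean T0 count of 50, FANCD2 (-2.25) lost its call and NCOA4 changed sign (-0.56).

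The kinases that Sorafenib binds gave 0 resisters and 0 sensitizers of 11, with a median of 0.097. Over all genes 1.8% were resisters and 0.843% sensitizers, so lists of this size hold few calls at that share. BRAF, a RAF kinase, stood at 0.201. KDR, a receptor of VEGF, stood at -2.25 and passed, at -4.47, with guides of a mean T0 count of 50 or more only. The RAS to ERK pathway gave 1 sensitizer of 31, DUSP4, a phosphatase that turns off ERK, at 3.06. All 4 guides of DUSP4 were higher, guide 2 at 8.92 and 10.1 CPM with vehicle and 18.00 and 17.4 CPM with Sorafenib. The PI3K and mTOR pathway gave 1 resister and 1 sensitizer of 33, the latter PIK3R1, the regulatory subunit of PI3K, at 2.37. Transport and metabolism of Sorafenib gave neither in 18 genes. Without guides under a mean T0 count of 50, DUSP4 (1.41) and PIK3R1 (1.499) lost their calls. ABCC3, of the transport and metabolism list, then passed as a resister at -2.34.

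**Figure D4:**
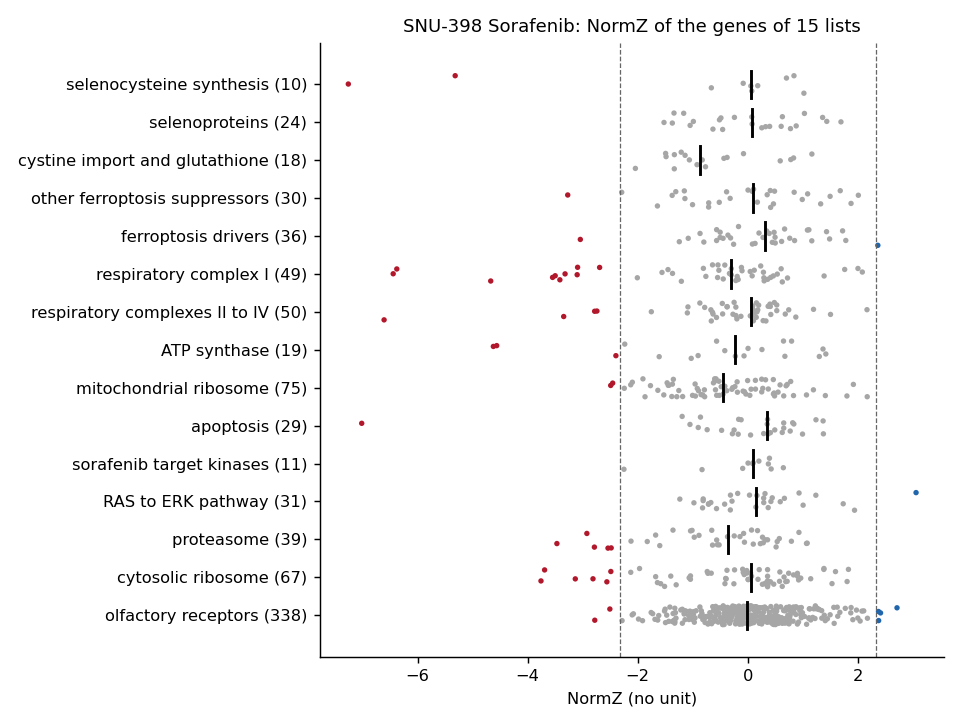
NormZ (horizontal axis, no unit) of each gene in 15 lists, with the number of genes in brackets, resisters in red, sensitizers in blue and the list median as a black bar. Complex I, with 10 resisters of 49, stands out by its tail on the left, while its median of -0.30 stays near that of the other lists.

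Among the remaining lists, the proteasome had 5 resisters of 39 (12.8%), led by PSMC3 at -3.47, and the cytosolic ribosome 6 of 67 (8.96%), led by RPL11 at -3.76, beside 1.8% of all genes. Both are needed by every dividing cell, and their medians were -0.37 and 0.049. RPL11 summed to 48.6 and 45.5 CPM at T0, 33.03 and 40.9 CPM with vehicle and 8.48 and 9.59 CPM with Sorafenib. Neddylation and the cullin core gave COPS5 (-2.72) and NEDD8 (-2.42) of 32, the COMPASS methyltransferases WDR82 (-2.899) of 17, the peroxisome PEX16 (-2.72) of 32, and the KEAP1-NRF2 axis SQSTM1 (-2.41) and, as a sensitizer, MAFF (2.35) of 18. KEAP1 itself stood at -1.24 and NAE1 at -1.02. Iron and iron-sulfur cluster genes gave TFR2 (-2.61) and CIAO1 (-2.597) as resisters, beside NCOA4, of 39. The RB, Wnt, Hippo and hypoxia lists gave none of 22, 27, 22 and 9 genes, with RB1 at -2.24 and CTNNB1 at -0.79. Without guides under a mean T0 count of 50, NEDD8 (-1.98), SQSTM1 (-1.61) and MAFF (1.31) lost their calls. RB1 (-2.66), RBX1 (-2.67) and SENP8 (-2.4) gained one. RBX1 and SENP8 belong to the neddylation list, which then had 3 resisters among 31 genes with a guide at that depth. The proteasome then still had 5 resisters, among 31 genes with such a guide, but PSMD2 (-2.13) and PSMD3 (-1.89) had lost their calls and PSMA5 (-2.58) and PSMB3 (-4.19) had gained one. The cytosolic ribosome had 6 of 51, although RPL13 (-2.18) and RPS19 (-2.06) had lost their calls, and RPS15A (-2.43) was among those gained. Olfactory receptors, which liver cells do not need, gave 2 resisters and 4 sensitizers of 338, with a median of -0.016 and a range from -2.78 to 2.71. Within that range lay, among others, the calls of MRPS10, MRPL20, NDUFA5, COA6, ATP5A1, COPS5, NEDD8, PEX16, SQSTM1, TFR2 and CIAO1. The same holds for the resisters PSMD2, RPL13 and RPS19 and the sensitizers NCOA4, PIK3R1, MAFF, SHMT1 and FTCD.

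Outside the lists, LIPE, the hormone-sensitive lipase, ranked 7th at -5.37. Its guide 3 fell from 40.4 and 39.1 to 18.8 and 18.6 CPM, and guides 1 and 4, at 0.1303 and 0.368 and 0.478 and 0.221 CPM at T0, stood at 4.37 and 5.88 and 4.46 and 3.63 CPM with vehicle and at 0.188 and 0 and 0 and 0 CPM with Sorafenib. With guides of a mean T0 count of 50 or more only, LIPE moved to -2.46. CENPC, a protein of the inner kinetochore, stood at -5.13, with guide 1 at 265 and 266 CPM with vehicle and 147 and 151 CPM with Sorafenib and guide 3 at 49.1 and 50.6 and 19.6 and 17.2 CPM. SPSB1, a substrate adaptor of a cullin ligase, stood at -5.03 without a count in either Sorafenib library for any of its 3 guides, against totals of 4.04 and 3.75 CPM at T0 and 9.01 and 10.9 CPM with vehicle.

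The sensitizer with the highest NormZ was SMARCB1, a core subunit of the SWI/SNF remodeller, at 4.12. Guide 3 of SMARCB1 rose from 278 and 283 CPM with vehicle to 390.0 and 447 CPM with Sorafenib, and guides 2 and 4 from 0 and 0 and 0.182 and 0.519 CPM to 1.51 and 1.33 and 2.64 and 3.04 CPM. SMARCB1 was higher in both Sorafenib libraries, but by 0.602 ± 0.04 over the gene (log2 fold change ± SE, edgeR adjusted p 1.05e-18), a smaller step than those of the leading resisters. With guides of a mean T0 count of 50 or more only, its NormZ was 2.32, just short of the threshold.

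DDIT3, which encodes the stress factor CHOP and was the only call among 22 genes of the integrated stress and unfolded protein responses, stood at 3.37. Its guide 2 rose from 8.55 and 9.34 to 14.6 and 17.4 CPM and guide 3 from 126 and 118 to 144 and 135 CPM. Guide 1 had 0.652 and 0.515 CPM at T0, no count with vehicle and 3.02 and 3.99 CPM with Sorafenib, and without such rare guides NormZ of DDIT3 was 1.54. ATF4, upstream of DDIT3 in that response, had -1.93. SHMT1 (2.58) and FTCD (2.605) were the 2 sensitizers among 26 folate enzymes, with 0 resisters. MSMO1 (2.95) was the only call among 28 genes of cholesterol synthesis. Over all genes 0.843% were sensitizers. SHMT1 rested on guide 4, at 0.521 and 0.441 CPM at T0, 0.637 and 0.346 CPM with vehicle and 14.4 and 12.7 CPM with Sorafenib. MSMO1 moved to 0.55 and FTCD to 2.196 without guides under a mean T0 count of 50, and SHMT1 had no guide above it. A single guide held over 90% of the vehicle counts in 46.1% of the sensitizers, 20.3% of the resisters and 34.9% of all genes.

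Guides of a gene moved together in few genes. Of 14383 genes with 3 or more tested guides, all tested guides were lower in 292 (2.03%), of which 94 were resisters, and all were higher in 66 (0.459%), of which 36 were sensitizers. BCL2L1, NDUFB6, NDUFAF1, ATP5H, ATP5A1 and POR are among the former and DUSP4 and DDIT3 among the latter. Many of the genes with the largest median guide change in this set were rare: ZHX1, for example, had totals of 3.37 and 5.54 CPM with vehicle and 0 and 0 CPM with Sorafenib. NormZ sums the same guides, so the overlap with resisters and sensitizers only describes them. Of single guides, edgeR called 31% lower and 19.3% higher.

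Against T0, edgeR called 35% of genes lower and 30.1% higher in the Sorafenib libraries. Of the 325 resisters 300 were lower than at T0 and 4 higher, and of the 152 sensitizers 145 were higher and 0 lower. The same Sorafenib libraries enter both comparisons, so these counts only describe the levels. PSTK differed from T0 by -1.96 ± 0.04 and BCL2L1 by -2.999 ± 0.12 on the log2 scale (± SE), close to their differences from vehicle, since their vehicle and T0 levels were alike. ATP5B lay further below T0, at -2.73 ± 0.079, than below vehicle, at -2.11 ± 0.084. SURF1 was the reverse, with -0.29 ± 0.3 against T0 (edgeR adjusted p 0.415), since its guides had grown with vehicle from 2.35 and 2.65 CPM to 9.19 and 9.52 CPM.

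Regorafenib is Sorafenib with a fluorine on its central ring. Both were given for 14 days, each at its own concentration that inhibits 20% of the cells, so the molar doses need not match. In the contrast of the Sorafenib with the Regorafenib libraries, 6321 of 17996 genes (35.1%) were lower with Sorafenib and 5915 were higher. PSTK summed to 109 and 100.1 CPM with Sorafenib, 301 and 303 CPM with Regorafenib and 409.7 and 385 CPM with vehicle. It was lower with Sorafenib than with Regorafenib (log2 difference -1.498 ± 0.041, ± SE, edgeR adjusted p 3.87e-37), and the Regorafenib libraries lay between the other groups. BCL2L1 stood at 5.28 and 6.36 CPM with Sorafenib and 37.6 and 41.5 CPM with Regorafenib, a log2 difference of -2.73 ± 0.12 (edgeR adjusted p 1.06e-26). NDUFB6 was low under both drugs, at 0.942 and 1.04 CPM with Sorafenib and 4.96 and 5.09 CPM with Regorafenib, and still differed by -2.301 ± 0.25. ATP5A1 did not pass this contrast (-0.16 ± 0.089, edgeR adjusted p 0.111), with 28.6 and 32.3 CPM under Sorafenib and 35.7 and 33.3 CPM under Regorafenib. SURF1 was lower still with Regorafenib, at 1.198 and 0.574 CPM. The extremes of this contrast were genes with no count on 1 side, such as SPSB1, at 9.93 and 12.5 CPM with Regorafenib, and OXR1, at 8.95 and 5.51 CPM with Sorafenib and 0 and 0 CPM with Regorafenib.

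Hep3B cells, screened with the same library and drug in other libraries, gave 300 resisters (1.66%) and 140 sensitizers (0.777%) among the 18025 genes measured in both lines. The lines shared 18 resisters, which are 5.54% of those of SNU-398 and 6% of those of Hep3B, and 1 sensitizer. NormZ of the lines correlated at 0.071 over genes, which are not independent replicates. The 3 shared genes with the lowest NormZ in SNU-398 were PSTK (-7.26 in SNU-398, -4.64 in Hep3B), SOD2 (-5.67, -2.77) and SEPSECS (-5.32, -2.498). COA6 (-2.52 in Hep3B), PSMC3 (-2.58), RPL10A (-3.38) and WDR82 (-3.08) were also shared. Of the complex I list, 1 gene was a resister and 1 a sensitizer in Hep3B, with a median of -0.32, and NDUFB6 stood at -1.44.

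The difference of NormZ between the lines was called for 1 gene of 18025 (0.00555%), BCL2L1, at -7.02 in SNU-398 and 0.085 in Hep3B (difference over the square root of 2 -5.02, adjusted p 0.00924 from a normal distribution). With Sorafenib replicate 1 or vehicle replicate 1 left out in both lines, 0 genes were called. PRSS48, a serine protease, came next among the genes lower in SNU-398 (-1.95 against 4.47, adjusted p 0.0504), followed by COA3 (-6.61 against -0.999, adjusted p 0.305), and neither passed. In the other direction MROH2A (3.64 against -2.12), TRRAP (1.83 against -3.72) and SAMD9 (2.49 against -2.86) differed most, and none of these passed. For PSTK, SOD2, SEPSECS and the complex I genes the difference between the lines did not pass, which does not show that the lines were alike.

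**Figure D5:**
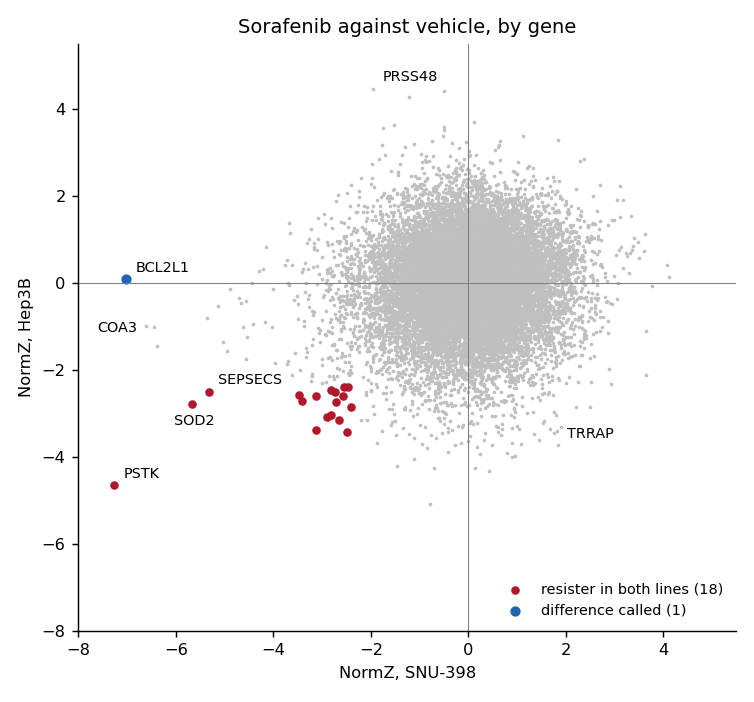
NormZ of each of 18025 genes with Sorafenib in SNU-398 (horizontal axis) and Hep3B (vertical axis), with the 18 shared resisters in red and the gene whose difference was called in blue. PSTK, SOD2 and SEPSECS are low in both lines, while BCL2L1 lies at -7.02 in SNU-398 and 0.085 in Hep3B.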

How the data were processed

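The authors amplified the guides from genomic DNA, counted them with Bowtie2 and deposited whole-number counts per guide, not normalized. The Bowtie2 version is not given in the sources used here. Most counts above 0 were even, so totals may not equal numbers of reads. Their share was 97.4% and 89.5% in vehicle libraries 1 and 2, and 96.8% and 86.5% in Sorafenib libraries 1 and 2. The 2 RNA-seq tables of the series were not used here.

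NormZ followed the steps of DrugZ in Python 3.11.15 (numpy 2.4.6, scipy 1.17.1, pandas 2.3.3). Counts were scaled to 1e+07, 5 was added, and Sorafenib and vehicle libraries were compared in pairs of equal number, as DrugZ does. Each log2 ratio was divided by a running SD (1000 guides of similar vehicle level), and the quotients were added up by gene. The sums, each divided by the square root of its number of terms, were standardised over genes. Resisters and sensitizers had a one-sided normal p under 0.01. False discovery rates used the method of Benjamini and Hochberg.

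edgeR 4.0.16 in R 4.3.3 (TMM scaling, filterByExpr, quasi-likelihood test, Benjamini-Hochberg adjustment, threshold 0.05) was fitted on guides and on counts summed per gene over 15 SNU-398 libraries. Erastin replicate 2 was left out, because earlier work on these data found its guides in the proportions of Hep3B. That comparison is not shown here. DESeq2 1.42.0 was an alternative. The edgeR test returns no SE. The SE given here is the absolute log2 fold change divided by the square root of F, the test statistic. A gene or guide without counts in a whole group gets no fold here. Both methods were run on simulated data in which all guides of a changed gene changed alike. That does not show how often they call unchanged genes in the real counts. Figures were drawn with matplotlib 3.10.9.

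Over guides, the variance between libraries of a group was 1.27 times the sampling noise of halved counts for vehicle and 1.89 times for Sorafenib.

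The members and the 31 gene lists were chosen with earlier results of these data known. Named genes were PSTK, SOD2 and SEPSECS, the 10 lowest and 10 highest NormZ, up to 10 genes per direction with all of at least 3 tested guides called one way, all members of selenocysteine synthesis, up to 4 called members of each other list, genes fixed by name (among them GPX4, SLC7A11, ACSL4, KEAP1, BRAF, NAE1, RB1 and CTNNB1), and the 3 largest differences each way between lines and from Regorafenib. MCL1, BAX, BAK1, GSR, KDR, PSMA5, PSMB3, RPS15A, RPL13, RPS19, RBX1, SENP8, MRPL54, ABCC3, ATF4, NDUFS3, NDUFB7, and the complex I resisters beyond the first 4, were chosen after their values were seen. A few genes under this rule are not reported here.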

Additional observations from a re-analysis of the deposited data

Results flagged for a closer look

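BCL2L1 differed between the lines under the same contrast, Sorafenib against vehicle: its NormZ was -7.02 in SNU-398 and 0.085 in Hep3B, a difference over the square root of 2 of -5.02 (adjusted p 0.00924 over 18025 genes, normal distribution). NormZ was below -5.7 in SNU-398 in each pair of libraries taken alone (-7.79 and -5.74). Leaving out Sorafenib replicate 1 or vehicle replicate 1 in both lines left 0 genes called.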

How the results depend on the processing

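The count of resisters in SNU-398 stayed between 287 and 325 and that of complex I resisters at 9 or 10 under every alternative to NormZ. The members changed more than the count. With a mean vehicle count of at least 30, 186 of 287 resisters were among the main 325. With a mean T0 count of at least 50, 188 of 296 were. Sensitizers fell from 152 to 33 when guides under a mean of 30 vehicle counts were dropped and to 40 when those under 50 mean T0 counts were dropped, an alternative chosen after seeing the data. The first of these also left 155 resisters in Hep3B and 11 in both lines. Genes differing between the lines numbered 2 with it, 2 with median-of-ratios scaling, and 0 to 2 when a replicate was left out, the main count being 1. NCOA4 reversed to -0.51 and -0.56 with these minimum counts. Of 71 named genes called by NormZ, 27 were called under each alternative. For edgeR, adding the set-aside Erastin library moved the counts called higher than vehicle to 3054 genes and 7222 guides, and the share of control guides called was 31.9% to 38.6% when a replicate was left out. Deviations of Sorafenib and vehicle libraries of equal number correlated at 0.0019 over guides read at T0. Whether libraries of equal number were processed together cannot be told from this value, since the share of even counts differed by library number. Without pairing by number NormZ gave 322 resisters and 152 sensitizers, and edgeR with the replicate block called 5548 genes lower and 4724 higher over 15 libraries. Low depth limits the reading of 2115 genes without a guide at a T0 count of 50.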
